A study of Zea mays with 6 samples.

Results

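This account concerns 5 of the 46430 genes counted in maize (Zea mays) leaves: the transcription factor genes golden2 (Zm00001d039260) and glk1 (Zm00001d044785), the magnesium chelatase subunit I gene oy1 (Zm00001d023536), and the protochlorophyllide reductase genes por1 (Zm00001d032576) and por2 (Zm00001d013937). They were chosen by identifier as regulators of chloroplast development and enzymes of chlorophyll synthesis, and their names come from that choice. All 5 passed the filter on low counts. The third leaf of seedlings was sequenced as bulk RNA from the inbred lines W9706 and B73 on day 7 of drought, with 3 libraries per line. B73, labelled wild type, is the maize reference line, and the labels say no more of W9706 than its name. Both lines were under drought and no watered plants were analysed here, so the comparison is of line with line and holds no response to drought. The labels do not say whether the libraries of a line came from separate plants, so p-values here reflect only how far these libraries scatter, which could be technical.

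Chlorophyll is made in the plastid from protoporphyrin, and magnesium chelatase, an enzyme of several subunits, inserts the magnesium ion that commits the molecule to this branch. Subunit I, encoded by oy1 (oil yellow), hydrolyses ATP for that step, and maize oil yellow mutants are yellow-green. Protochlorophyllide reductase acts later and in flowering plants needs light to reduce protochlorophyllide to chlorophyllide. Golden2 and its paralog GLK1 are GARP-family transcription factors of chloroplast development. In maize, golden2 is known for the chloroplasts of bundle sheath cells and glk1 for those of mesophyll cells, the cell types that share the C4 pathway of this leaf. In Arabidopsis, proteins of this family are known to activate genes of chlorophyll synthesis and light harvesting.

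The genes that differed between the lines did not share a direction. In W9706 glk1 fell and por1 and por2 rose, while golden2 and oy1 did not pass the test. Changes are given as W9706 over B73 from edgeR's quasi-likelihood test across 22135 genes, and a gene was called where its p, adjusted by the Benjamini-Hochberg method, was under 0.05. Under this rule 34.2% of all genes tested were called, 15.2% higher and 19% lower in W9706, and 3 calls among 5 chosen genes are not read as particular to the group. Levels are in CPM, the counts of a gene set against the library total, here corrected with TMM factors for differences in library composition. Gene lengths were not used here, so levels are compared between lines for a gene and not between genes.

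**Figure D1:**
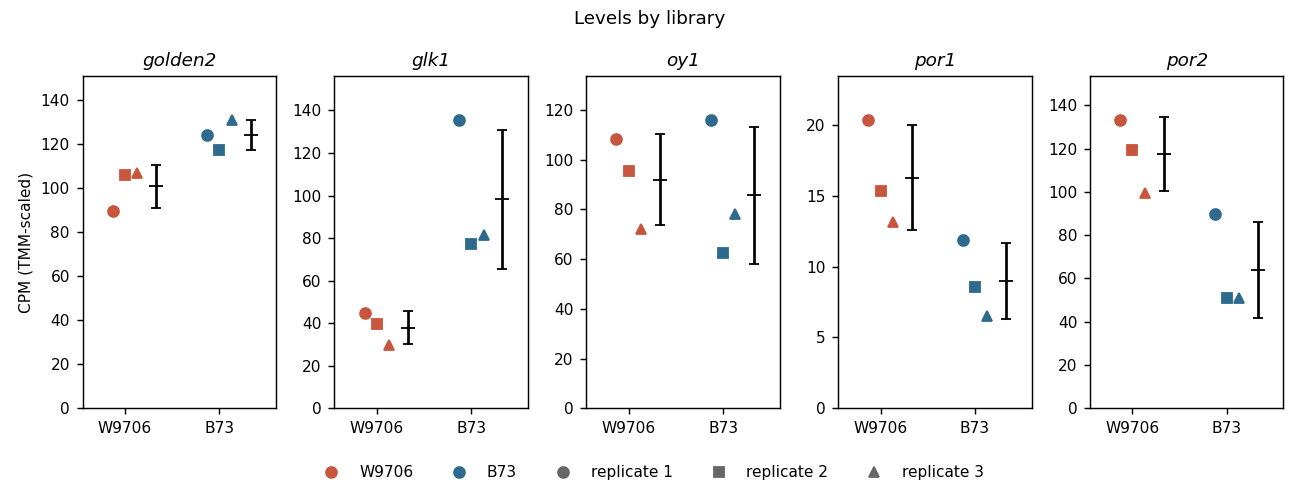
CPM of each gene (vertical axis, from 0, with its own scale per gene) in the 3 W9706 and 3 B73 libraries, with marker shape for the replicate number and the mean ± SD beside the points. The lines do not overlap for golden2, glk1, por1 and por2, as for 50.6% of all genes tested, and oy1 overlaps widely.

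Of the regulators, glk1 had 44.6, 39.5 and 29.6 CPM in W9706 replicates 1 to 3, against 136, 77.3 and 81.7 CPM in B73 replicates 1 to 3. Every W9706 library lay below every B73 library, and the lowest B73 library was 1.73-fold above the highest W9706 library. Lines that do not overlap, in either direction, were seen for 50.6% of all genes tested. W9706 averaged 37.9 ± 7.67 CPM and B73 98.2 ± 32.5 CPM (SD, n = 3 each). The log2 fold change was -1.37 ± 0.26 (SE, edgeR adjusted p of 0.00704), or 2.59-fold lower in W9706, with a 95% interval of the W9706 to B73 fold from 0.253 to 0.587. It was the sole member changed by more than 2-fold past the threshold, as 13.9% of all genes tested were. Of the genes tested, 9.64% had a larger change in either direction. B73 replicate 1 was the highest library of glk1, and without it the log2 fold change was -1.06 (edgeR adjusted p of 0.00571).

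The fitted change of its paralog golden2 was smaller and was not called. This gene had 89.6, 106 and 107 CPM in W9706 replicates 1 to 3, against 124, 118 and 131 CPM in B73 replicates 1 to 3. As for 50.6% of all genes tested, the lines did not overlap, but their nearest libraries were 1.10-fold apart. W9706 averaged 101 ± 9.69 CPM and B73 124 ± 6.76 CPM (SD, n = 3 each), and the log2 fold change of -0.30 ± 0.11 missed the threshold (edgeR adjusted p of 0.0568, unadjusted 0.0203). The 95% interval of the W9706 to B73 fold was 0.686 to 0.959. DESeq2 put it just past the threshold (log2 fold change -0.30, adjusted p of 0.0494). The value rests on the scaling between libraries: with library size alone it was -0.02 (edgeR adjusted p of 0.897), a setting that moved the median of all genes to 0.29, against 0.01 with TMM. Relative to that median golden2 lay at -0.31 in both.

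Among the enzymes, oy1 showed no difference beyond its spread. It had 108, 95.4 and 72.2 CPM in W9706 replicates 1 to 3, against 116, 62.6 and 78.2 CPM in B73 replicates 1 to 3. The lines overlapped, with the highest and the lowest library both from B73. W9706 averaged 92.0 ± 18.3 CPM and B73 85.6 ± 27.4 CPM (SD, n = 3 each), and the log2 fold change was 0.10 ± 0.25 (edgeR adjusted p of 0.782). The 95% interval of the W9706 to B73 fold, 0.714 to 1.61, does not exclude a change of moderate size in either direction. The sign itself turned when B73 replicate 2 (log2 fold change -0.07) or W9706 replicate 1 (-0.03) was left out.

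The reductase genes were higher in every W9706 library than in any B73 library, where 50.6% of all genes tested had lines that did not overlap in either direction. For por2 the values were 133, 120 and 99.7 CPM in W9706 replicates 1 to 3, against 89.7, 51.1 and 51.0 CPM in B73 replicates 1 to 3. The lowest W9706 library was 1.11-fold above B73 replicate 1, and the other B73 libraries lay far below it. W9706 averaged 118 ± 16.9 CPM and B73 64.0 ± 22.3 CPM (SD, n = 3 each), and the log2 fold change was 0.88 ± 0.24, or 1.84-fold (edgeR adjusted p of 0.0296, 95% interval 1.24 to 2.73). Of the genes tested, 8.66% had a higher log2 fold change.

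The second reductase gene, por1, gave 434 to 566 counts per library in W9706 and 123 to 286 in B73. It had 20.4, 15.3 and 13.1 CPM in W9706 replicates 1 to 3, against 11.9, 8.59 and 6.54 CPM in B73 replicates 1 to 3. The lines did not overlap, with 1.10-fold between the lowest W9706 and the highest B73 library. W9706 averaged 16.3 ± 3.71 CPM and B73 9.00 ± 2.69 CPM (SD, n = 3 each), and the log2 fold change was 0.85 ± 0.24, or 1.80-fold (edgeR adjusted p of 0.0316, 95% interval 1.21 to 2.67). Counting error alone was at most 9.02% of a library's value for por1, below the spread between libraries of 22.8% in W9706 and 29.9% in B73. Without regard to replicate numbers, the calls of both reductase genes depended on the libraries used. They held without W9706 replicate 3 (edgeR adjusted p of 0.0238 for por1 and 0.0335 for por2) and without B73 replicate 1 (0.0139 for por1 and 0.00212 for por2). Leaving out W9706 replicate 1 gave por1 an edgeR adjusted p of 0.0830, leaving out W9706 replicate 2 gave 0.0694, and leaving out B73 replicates 2 and 3 in turn gave 0.0899 and 0.0758. The same 4 fits gave por2 edgeR adjusted p-values of 0.0802, 0.0789, 0.0776 and 0.0793, so that both calls were lost in each. The sign stayed positive in each of these fits, with 2 libraries in one line and 3 in the other. With the replicate number as a block the edgeR adjusted p was 0.00196 for por1 and 0.00257 for por2, a setting that assumes the numbers pair the libraries. Block fits that left out 1 library in turn were chosen after seeing the data. They kept both calls, with edgeR adjusted p-values of 0.00540 to 0.0201 for por1 and 0.00531 to 0.0119 for por2. In such a fit the same-numbered library of the other line has no partner and adds nothing to the line difference. Leaving out either library of a number is thus nearly the same fit (por1 log2 fold change 0.925 without B73 replicate 1 and 0.919 without W9706 replicate 1). The block fits are therefore not 6 separate checks and do not offset the calls lost without the block.

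**Figure D2:**
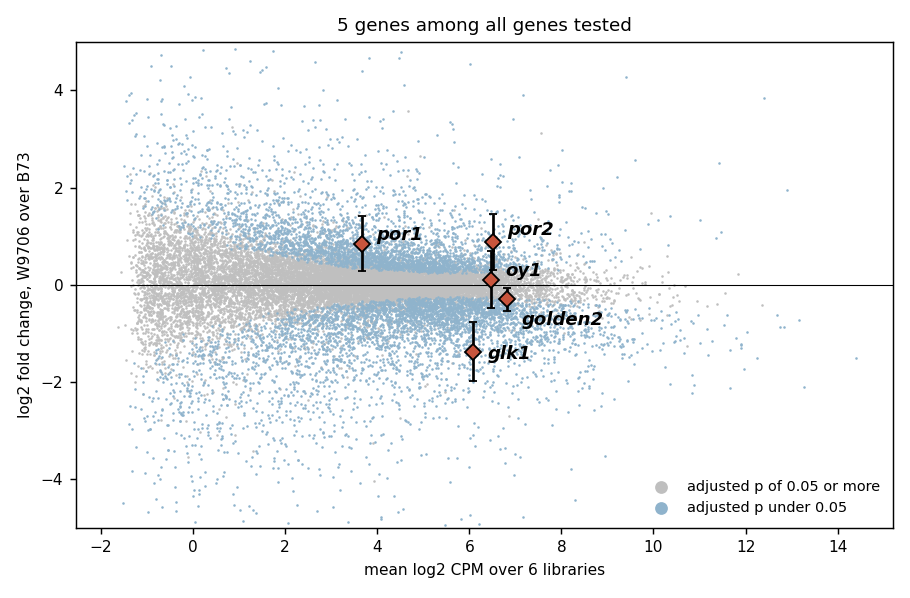
Log2 fold change of W9706 over B73 (vertical axis) against the mean log2 CPM over the 6 libraries (horizontal axis) for the genes tested, with the 5 genes as diamonds and their 95% intervals as bars. The vertical axis stops at a change of 5 in either direction, which leaves 52 genes out of view; por1 and por2 lie at nearly the same height above 0 and glk1 lies lowest of the 5.

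Ratios of one gene to another inside a library need no scaling between libraries, and they ask whether the members differed between the lines in unlike amounts. For each of 4 ratios of counts the lines were set against each other with an exact permutation test, two-sided, whose smallest possible p with 3 libraries a line is 0.1, and p-values were adjusted over the 4. The ratio of golden2 to glk1 was 2.01, 2.68 and 3.61 in W9706 replicates 1 to 3, against 0.916, 1.52 and 1.61 in B73 replicates 1 to 3. The lines did not overlap. On the log2 scale the mean was 1.43 ± 0.42 in W9706 and 0.39 ± 0.45 in B73 (SD, n = 3 each), a ratio 2.06-fold higher in W9706 (exact permutation p of 0.1, the smallest possible, adjusted 0.2). The lines were separate in these libraries, as they were for 50.6% of single genes tested. How often the lines separate for ratios of other genes was not measured. With 3 libraries a line the test cannot pass 0.05, so it does not decide whether the ratio differs.

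The counts of the reductase genes were also set against those of oy1, the earlier enzyme. Most of the summed counts came from por2, as the ratio of por1 to por2 was 0.129 to 0.168 over the libraries. The summed ratio thus mainly reflects por2. The ratio of por1 and por2 summed to oy1 was 1.42, 1.41 and 1.56 in W9706 replicates 1 to 3, against 0.876, 0.953 and 0.736 in B73 replicates 1 to 3. The libraries of a line lay closer together here than in the levels of these genes. The lines did not overlap, again with no share measured for ratios of other genes. The log2 means were 0.55 ± 0.08 in W9706 and -0.23 ± 0.19 in B73 (SD, n = 3 each), a ratio 1.72-fold higher in W9706 (exact permutation p of 0.1, adjusted 0.2). It stayed between 0.68 and 0.87 on the log2 scale of the difference whichever library was left out.

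Between the reductase genes themselves no difference in proportion was detected. The ratio of por1 to por2 was 0.153, 0.129 and 0.132 in W9706 replicates 1 to 3, against 0.133, 0.168 and 0.129 in B73 replicates 1 to 3, and the lines overlapped. The difference of log2 means was -0.05 (exact permutation p of 0.6, adjusted 0.6), which does not show that the genes differ alike between the lines. The ratio of golden2 to oy1 was lower in W9706 by 0.44 on the log2 scale, at 0.15 ± 0.42 in W9706 and 0.58 ± 0.43 in B73 (SD, n = 3 each), with overlapping lines (exact permutation p of 0.3, adjusted 0.4).

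**Figure D3:**
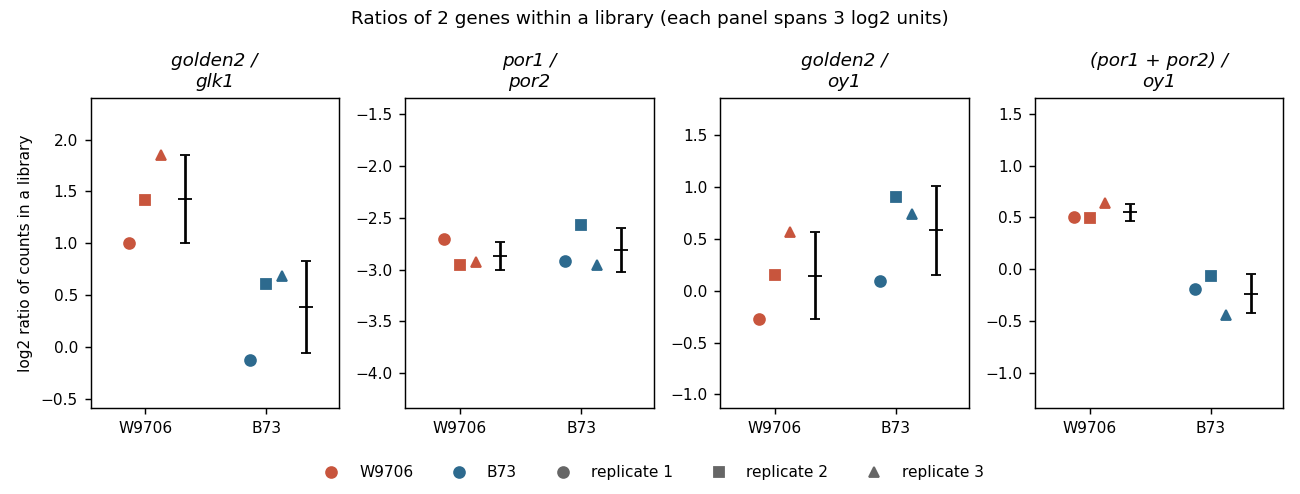
Log2 ratio of the counts of 2 genes, or of por1 and por2 summed to oy1, in each library (vertical axes, all spanning the same width), with W9706 left of B73 and the mean ± SD beside the points. The lines separate for golden2 to glk1 and for the summed reductases to oy1, and the share of other ratios that do so was not measured.

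In both lines glk1, oy1, por1 and por2 were highest in replicate 1, and golden2 was not. In W9706 replicate 1 was the highest and replicate 3 the lowest library for these 4 genes, while golden2 was lowest in replicate 1. In B73 replicate 1 stood between 1.32-fold and 1.40-fold of the line's mean for the same 4, while golden2 stood at its mean there. The lower B73 libraries had no common order, since replicate 2 was the lowest for glk1 and oy1 and replicate 3 for por1. For por2, replicates 2 and 3 were level, at 51.1 and 51.0 CPM. The W9706 order was held by 23.1% of all genes tested, a highest B73 replicate 1 by 34.6%, and both together by 10.5%. The share with replicate 1 highest in both lines, whatever the order below it, was not counted. The biological coefficient of variation that edgeR estimated was 11.7% for golden2 and 21.4% to 22.2% for the other 4, against a median of 15.5% over all genes.

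Libraries are set side by side by replicate number here, though whether the numbers pair them was not tested. Across genes, deviations of same-numbered libraries from their line means correlated weakly, at 0.22, 0.11 and 0.13 for numbers 1 to 3. Unlike numbers gave -0.23 to 0.11, the highest being close to the value of number 2. For por1 the fold of W9706 over B73 was 1.71, 1.79 and 2.01 in the libraries numbered 1 to 3, and for por2 it was 1.49, 2.34 and 1.95. The level of glk1 was lower in W9706 by 3.04-fold, 1.96-fold and 2.76-fold in this order, and that of golden2 by 1.39-fold, 1.11-fold and 1.23-fold. For oy1 the folds were 0.934, 1.52 and 0.922, so that 1 of 3 was higher in W9706. With the replicate number as a term in the fit, the standard errors of por1 and por2 were 0.12 and 0.13 on the log2 scale, against 0.24 for both without it. The smaller errors hold only if the numbers do pair the libraries.

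**Figure D4:**
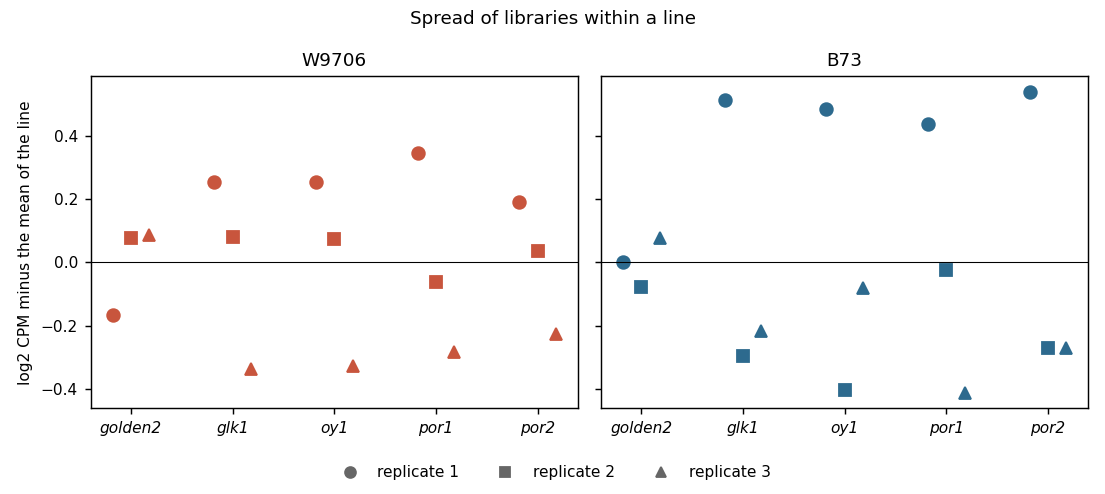
Log2 CPM of each library minus the mean of its line (vertical axis) for the 5 genes, in W9706 (left) and B73 (right), with marker shape for the replicate number. Replicate 1 is the highest library of glk1, oy1, por1 and por2 in both lines and not of golden2.

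By a fixed rule, the gene most like each member was the one whose log2 CPM had the highest Pearson correlation with it over the 6 libraries, among the 12566 whose mean reached 10 CPM. Since the libraries fall into 2 lines, such an r describes the line difference and the spread together and has no test here. For glk1 it was Zm00001d017767 (r of 0.999), which averaged 33.4 CPM in W9706 against 86.5 CPM in B73, and 4.94% of these genes had an r above 0.95 with glk1. For golden2 it was Zm00001d006112 (r of 0.995), at 29.6 CPM in W9706 against 35.8 CPM in B73, and 0.342% had an r above 0.95. For por2 it was Zm00001d032509 (r of 0.993), at 21.5 CPM in W9706 against 16.0 CPM in B73. Those of por1 (Zm00001d031273, r of 0.995) and oy1 (Zm00001d033402, r of 0.993) did not pass the test between the lines. The sources used here pair none of these 5 identifiers with a gene name.

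What the counts can hold also differs by gene. For golden2, 2.35% to 2.76% of the reads in the strand columns of W9706 and 2.26% to 3.54% of those of B73 were missing from the unstranded count, in which STAR gives a read that overlaps genes on both strands to neither. For the other 4 genes the strand columns summed exactly to the unstranded count. Golden2 and glk1, and por1 and por2, are paralogs, and reads that align to more than 1 place are not in these counts, so any stretch they share may be undercounted. The annotation is not named in the sources used here, but identifiers with the prefix Zm00001d are those of B73 gene models. Any W9706 read that fails to align for its sequence differences would lower the W9706 count. Such reads were not measured for these genes. The bulk leaf holds bundle sheath and mesophyll cells together, so fewer cells of a type and less RNA per cell cannot be told apart.

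The libraries held 25054048 to 32088105 counts assigned to genes in W9706 and 21084151 to 26631103 in B73, of which the 5 genes took 0.0353% to 0.0440% in W9706 and 0.0292% to 0.0432% in B73. Mean correlations of log2 CPM were 0.974 to 0.981 with the other libraries of the same line and 0.909 to 0.934 with those of the other line, and B73 replicate 2 and W9706 replicate 1 lay nearest the other line. Chi-square per degree of freedom between replicate libraries was 10.7 or more, so none was a duplicate. Neither leaf markers nor other genes of chlorophyll synthesis could be paired with an identifier from the sources used here, so tissue identity and the rest of the pathway were not analysed here.

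**Figure D5:**
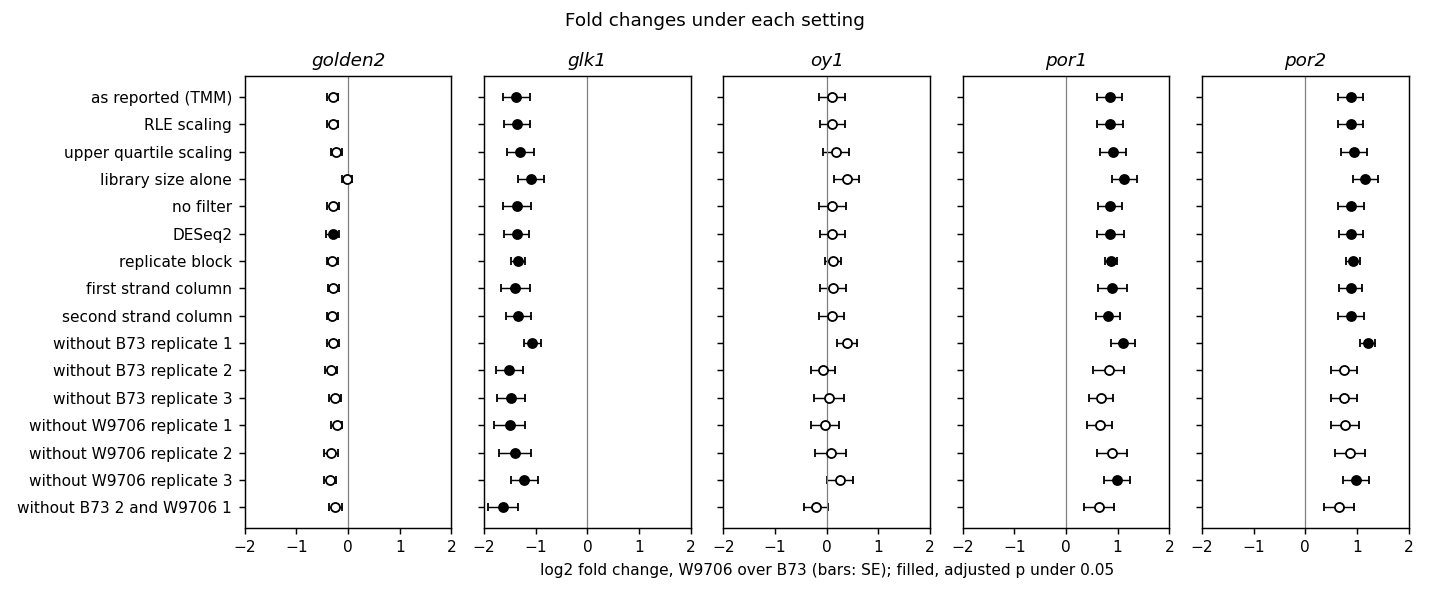
Log2 fold change of W9706 over B73 (horizontal axes) with its SE for each gene under each analysis setting (rows, without the block fits that leave out a library), filled where the adjusted p was under 0.05. glk1 is filled in every row, por1 and por2 lose their call in the same 5 rows, oy1 lies around 0, and golden2 is filled with DESeq2 alone.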

How the data were processed

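RNA-seq libraries of the third leaf of 3 W9706 and 3 B73 seedling samples on day 7 of drought were analysed. Seedlings had been raised in beakers of soil (26°C, 14 h light, 10 h dark), and the library kit was NEBNext Ultra RNA, per the labels' protocols, a kit that does not mark strand. The authors deposited raw read counts per gene, laid out as STAR writes them, and the submitters' processing notes name STAR. Not given in the sources used here are its version, the genome build and the annotation. The summary lines at the head of each file were left out, multimapping reads were listed as 0, and the unstranded column was used.

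The test was run in edgeR 4.0.16 (R 4.3.3) on the counts: filterByExpr by line, TMM factors, robust dispersions, the quasi-likelihood F test and Benjamini-Hochberg adjustment over all 22135 genes tested. The SE of a log2 fold change is the change divided by the square root of F, and its 95% interval uses the fit's degrees of freedom. Log2 CPM used a prior count of 2, and ratios within a library used 0.5 added to each count and exact permutation tests (scipy 1.17.1). Alternatives were DESeq2 1.42.0, other scalings, no filter, the strand columns, a replicate block and leaving out libraries. The labels do not say what a replicate number marks, and whether the numbers shared by the lines pair the libraries was not tested. Deviations of same-numbered libraries from their line means correlated at 0.22, 0.11 and 0.13. Unlike numbers gave -0.23 to 0.11. The highest of these, 0.107 for W9706 replicate 3 with B73 replicate 2, was close to the 0.111 of the libraries numbered 2. The edgeR fit was tested on simulated data.

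The 5 genes, the lists and the libraries to leave out together were chosen with earlier results of these data known. The genes named are the 5 and, for each, the most correlated gene. None of the 44146 identifiers with the prefix Zm00001d were in the RefSeq gene table of assembly Zm-B73-REFERENCE-NAM-5.0, so the fixed symbol lists (chlorophyll synthesis, light harvesting, cell type markers) had 0 matches. In that table por1 and por2 are synonyms of other genes, a porin and an aquaporin, which are not the genes described here.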

Additional observations from a re-analysis of the deposited data

How the results depend on the processing

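The fall of glk1 and the direction of the ratios of golden2 to glk1 and of the summed reductases to oy1 held in every alternative run for each. Leaving out 1 library gave log2 fold changes of -1.51 to -1.06 for glk1, -0.34 to -0.22 for golden2, -0.068 to 0.39 for oy1, 0.66 to 1.10 for por1 and 0.74 to 1.21 for por2, and the calls of por1 and por2 were lost in 4 of these 6 fits. Without B73 replicate 2 and W9706 replicate 1 together the values were 0.63 for por1 and 0.65 for por2, neither past the threshold, and -0.20 for oy1. These fits have fewer libraries. DESeq2 called golden2 (-0.30). The difference in the ratio of por1 to por2 was 0.023 with the first strand column and -0.13 to 0.072 with 1 library left out. The other ratio differences ranged from 0.78 to 1.25 (golden2 to glk1), -0.68 to -0.23 (golden2 to oy1) and 0.68 to 0.87 (summed reductases to oy1). The replicate block changed no call of the 5 genes: it gave -0.31 for golden2, -1.35 for glk1, 0.13 for oy1, 0.87 for por1 and 0.92 for por2. With the block and 1 library left out, chosen after seeing the data, values were -0.38 to -0.22 for golden2, -1.53 to -1.21 for glk1, -0.106 to 0.25 for oy1 (-0.095 without B73 replicate 2), 0.81 to 0.93 for por1 and 0.77 to 1.10 for por2, with no call changed among the 5; 4794 to 6727 genes were called (5026 without B73 replicate 1). With the block, leaving out either library of a number is nearly the same fit, so those fits are not separate checks. Of all genes the block called 8047, against 7564 without the block, and leaving out 1 library without the block called 5133 to 6751. With library size alone glk1 was at -1.09, por1 at 1.13 and por2 at 1.16, all still called. That setting called 10787 genes, 36.9% of those tested higher and 11.8% lower in W9706. The depth limits por1 most, at 123 counts in its lowest library.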
